A study of Canis lupus familiaris with 2 samples.

Results

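The genes described here had the strongest decreases in the left superior fat pads of dogs given the miR-206 lentivirus, after a set of named fat, nerve, early response, matrix and transporter genes had been put aside. They were chosen by 2 measured values of each probe set, the short-oligonucleotide set that reads a transcript on an Affymetrix array. The log2 intensity on the lenti-control array had to be 7 or more, and the difference of the lenti-miR-206 value from it had to be -1.585 or less, which is a decrease of at least 3-fold. Of 1628 probe sets in the table, 1182 carried a single gene symbol and stood for 823 genes, and 65 probe sets for 48 genes met the rule. Since these decreases chose the genes, they are a description and were not tested.

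Each group was 1 array with the pooled RNA of 3 dogs. The lenti-control group received lentivirus with a scramble sequence, and the lenti-miR-206 group received lentivirus that overexpressed miR-206. Both were injected into the fat pads of mongrel dogs of either sex, and the study describes these groups as free of atrial tachypacing, which the labels do not mention. Infection lasted 2 weeks in lenti-miR-206. The label of the control gives no time, but the study describes 2 weeks for that group too. The dogs of a pool cannot be separated, so the spread between animals is unknown and every difference below lacks a replicate check.

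A cardiac fat pad holds fat cells, ganglion cells and their fibres, connective tissue and vessels, and it lies on atrial muscle. Fat cells take up fatty acids released from lipoproteins, make glycerol 3-phosphate from sugar or from smaller precursors, and store both as triglyceride, with the nuclear receptor PPARG as the main regulator of their identity. A microRNA pairs through its seed with sites in messenger RNAs and lowers their translation or stability. MiR-206 is best known from skeletal muscle, and no transcript sequence was searched here for sites of its seed.

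The table itself is a selection. Every probe set in it differed between the arrays by at least 2-fold, and 405 of the 1628, or 24.9%, were lower in lenti-miR-206. At least 3-fold lower were 140 probe sets, or 8.6%, of which 112 had a lenti-control value of 7 or more. Among these 112, 26 had no gene symbol, 2 had several and 84 had 1 symbol for 61 genes. Removing the named genes took away 13 genes with 19 probe sets, namely ACSS3, C3, CHGB, CIDEA, CIDEC, CXCL14, FASN, FOS, S100B, STMN2, THBS1, THBS4 and TKT, and no transporter with a symbol starting in SLC or ABC had passed the thresholds. The 13 bacterial spike-in control probe sets in the table were lower too, with log2 differences between -1.17 and -1.001, whereas 5 GAPDH controls and 1 actin control were higher, with a log2 difference of 1.41 for actin. Differences are given as deposited unless stated otherwise.

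Taking the member probe set with the highest mean for each gene, the 48 genes had a median log2 difference of -1.98. All lower probe sets of the table, members included and not reduced to 1 per gene, had -1.33. A gap in this direction was fixed by the rule, which required 3-fold where the table required 2-fold. Their decreases ran from 3.02-fold to 40.9-fold, and 23 of the 48 genes were at least 4-fold lower. Only EIF2S3, PTPN2 and CCK were more than 8-fold lower by this probe set, and these were also the 3 genes whose lenti-miR-206 value lay below 5. Such values may be background, so the sizes of these 3 decreases are uncertain. Another 9 genes had lenti-miR-206 values between 5 and 6, namely REG3A, CILP, ACER3, PRKAR2B, ACSL1, ACSM3, PFKFB1, MOCOS and LYPLAL1. In 25 genes the lenti-miR-206 value was still 7 or more.

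**Figure D1:**
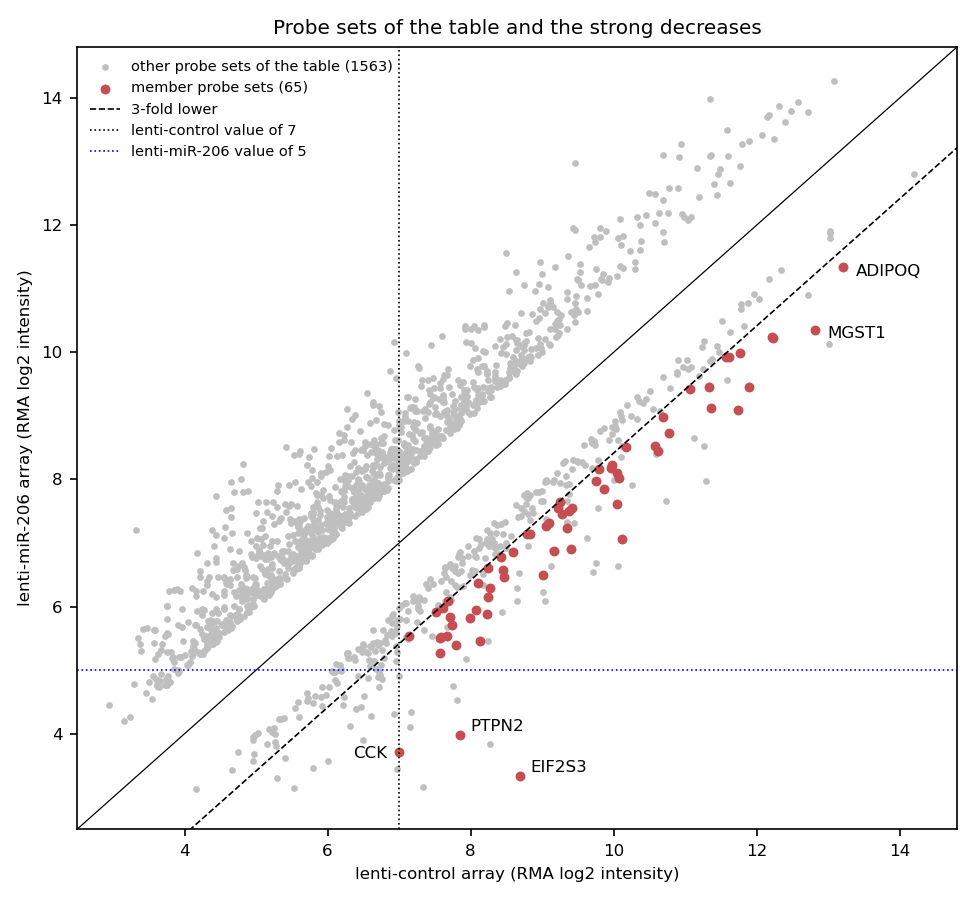
RMA log2 intensity of each of the 1628 probe sets on the lenti-control array (x axis) and on the lenti-miR-206 array (y axis), 1 pooled array per group, with the 65 member probe sets in red and the others in grey. The empty band along the diagonal is the 2-fold selection of the table, the members lie right of 7 and under the dashed line of 3-fold decrease, and EIF2S3, PTPN2 and CCK lie below the lenti-miR-206 value of 5.

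Fat cell genes remained among the 48 although others had been put aside by name. Of 27 listed fat cell genes, 14 were in the table, all 14 were lower, and 5 of them, PPARG, RBP4, GPD1, ADIPOQ and LPL, were among the 48 genes. Only 8 of the 48 were on any of the 20 lists, the other 3 being EIF2S3, PTPN2 and ME1, and 40 were on none. That no ganglion neuron, glia or mesothelium gene was a member follows in part from the rule, which put CHGB, STMN2, S100B and C3 aside by name. The genes are called the strong decreases below. They were divided by known role, after the members were known, into fat cell proteins, sugar and glycerol enzymes, lipid enzymes, redox and metal proteins, matrix and Wnt proteins, and a remainder.

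Among regulators of the fat cell, PPARG had log2 values of 9.16 in lenti-control and 6.88 in lenti-miR-206. This was a 4.88-fold decrease, read by 1 probe set. Its target ADIPOQ, the hormone adiponectin that fat cells secrete, was read by 2 probe sets. One went from 13.2 to 11.3 and the other from 12.2 to 10.2. Both stayed far above the dim range, and the decreases of 3.65-fold and 3.92-fold lay close together. LPL, the lipoprotein lipase that frees fatty acids for uptake, went from 11.6 to 9.92, or 3.14-fold.

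Some retinol carriers and other retinoid genes were among the strong decreases as well. RBP4, the retinol-binding protein of plasma, which liver and fat secrete, went from 12.2 to 10.2, a decrease of 4.03-fold, and its second probe set gave 4.51-fold. RBP7, a retinol-binding protein inside cells, went from 9.40 to 6.90, or 5.65-fold, but only 2.30-fold with its other probe set. RARRES1, a gene induced by retinoids, went from 9.34 to 7.23, or 4.33-fold. A further member, SDR16C5, is a dehydrogenase that oxidizes retinol, and it lay nearest to the threshold with a decrease from 7.68 to 6.08 and 3.02-fold.

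Cyclic AMP drives the release of fatty acids from fat cells through protein kinase A. PRKAR2B encodes RIIβ, the regulatory subunit of this kinase that predominates in fat, and both of its probe sets met the rule. They went from 8.08 to 5.94 and from 8.14 to 5.46, decreases of 4.40-fold and 6.41-fold. GNAI1, the α subunit of an inhibitory G protein that restrains adenylyl cyclase, went from 9.79 to 8.16, or 3.10-fold. PLAAT3, a phospholipase abundant in fat that acts on the same lipolytic pathway through prostaglandin, went from 8.46 to 6.47, or 3.97-fold, and 2.64-fold with a second, brighter probe set.

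The last fat cell proteins of this class were TMEM120A and NNAT. TMEM120A, a membrane protein of the nuclear envelope in fat cells, went from 9.06 to 7.27, or 3.45-fold, against 2.29-fold with a brighter probe set outside the rule. NNAT, neuronatin, is a small membrane protein of the endoplasmic reticulum that neurons and fat cells express. It went from 8.83 to 7.14, or 3.24-fold, while its other probe sets gave 4.02-fold from a lenti-control value under 7 and 2.71-fold. The probe set with 4.02-fold ended at 4.38 in lenti-miR-206, which may be background. Over the 11 genes of this class the median log2 difference was -1.99.

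**Figure D2:**
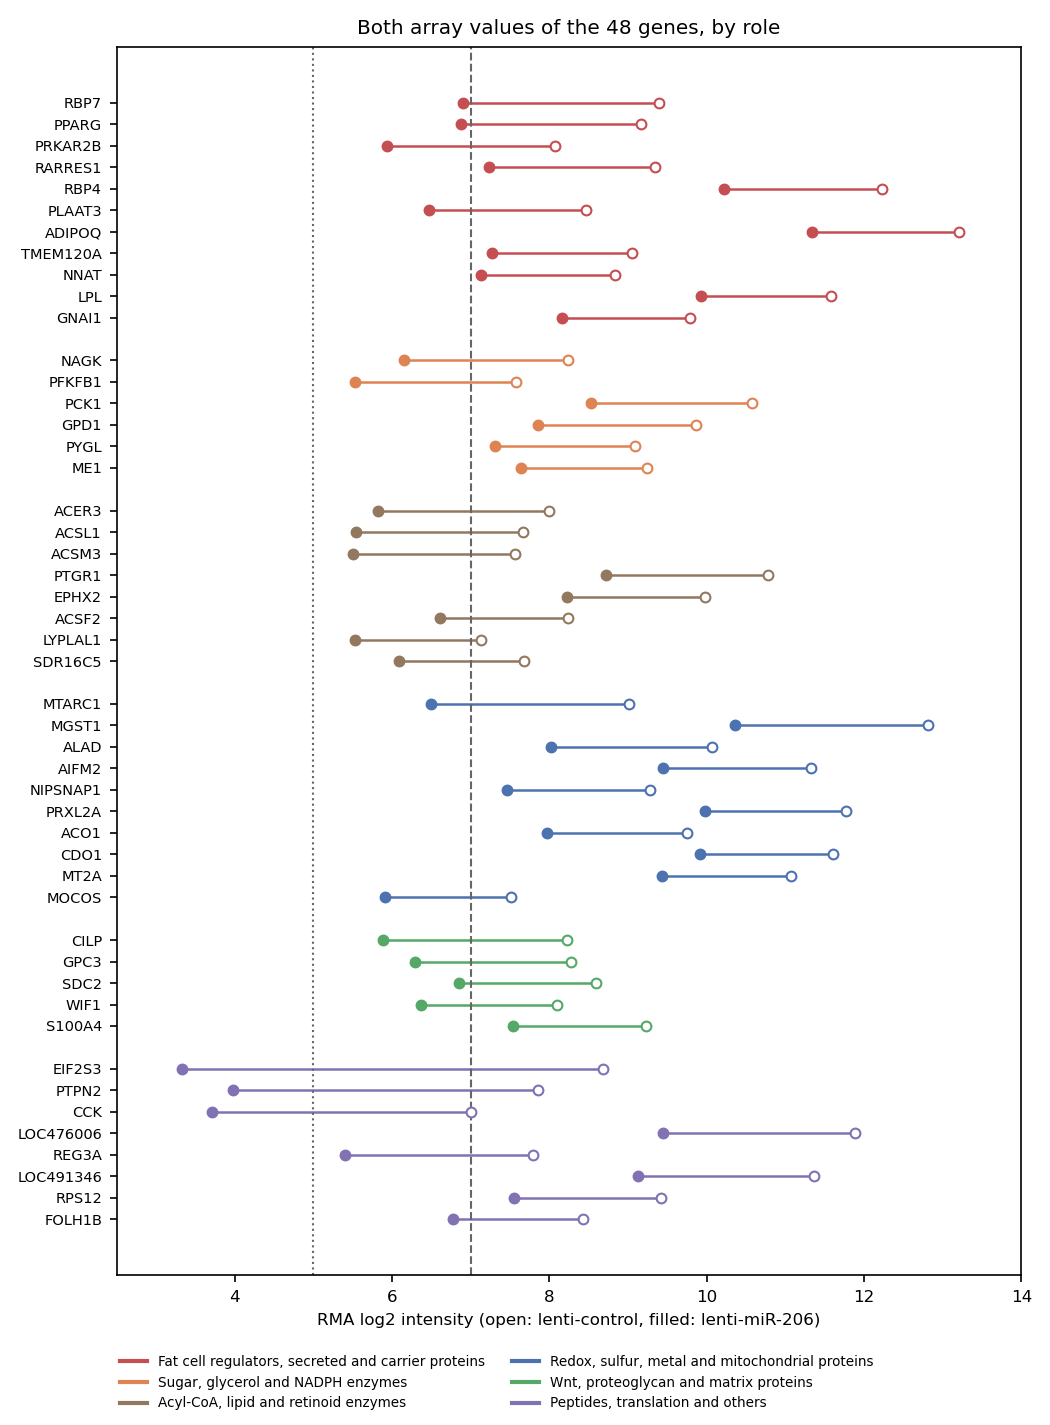
RMA log2 intensity (x axis) of the 48 genes (y axis, grouped and coloured by role) on the lenti-control array (open points) and on the lenti-miR-206 array (filled points), with 1 pooled array per group and no error bar, the dashed line at the lenti-control threshold of 7 and the dotted line at 5. Only EIF2S3, PTPN2 and CCK have a filled point left of 5, and the distance between the points of a gene is its difference, while positions of different genes are not comparable because each probe set has its own brightness.

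The class of sugar, glycerol and NADPH enzymes held 6 genes. GPD1, which reduces dihydroxyacetone phosphate to glycerol 3-phosphate, went from 9.87 to 7.85, a decrease of 4.04-fold, and from 10.05 to 7.62 with its second probe set, or 5.38-fold. PCK1, the cytosolic phosphoenolpyruvate carboxykinase that feeds the same product from smaller precursors in fat, went from 10.6 to 8.52, or 4.16-fold. ME1, the malic enzyme that makes cytosolic NADPH, went from 9.24 to 7.64, or 3.04-fold. It was the only one of the 30 listed genes of lipid and sterol synthesis among the strong decreases. Of that list 7 were in the table, 6 lower and only FADS1 higher, and FASN was put aside by the rule. Of the lower ones, FASN, ACACA, DGAT2 and ACLY are also on the fat cell list. The counts of both lists thus rest in part on the same genes. Of the 823 genes with a single symbol, 212 were lower.

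PYGL, the liver form of glycogen phosphorylase, was read by 3 probe sets, all of which met the rule. Their decreases were 3.11-fold, 3.44-fold and 3.68-fold, so the reading did not rest on 1 probe set. PFKFB1, which sets the level of the glycolytic activator fructose 2,6-bisphosphate, went from 7.58 to 5.53, or 4.16-fold. NAGK, the kinase that salvages N-acetylglucosamine, went from 8.24 to 6.16, or 4.25-fold, with 3.67-fold and 2.84-fold by its other probe sets. The 6 sugar and glycerol genes had a median log2 difference of -2.03.

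Acyl-CoA synthetases attach fatty acids to coenzyme A before storage or oxidation, and 3 kinds were among the strong decreases. ACSL1, for long chains, went from 7.66 to 5.54, or 4.36-fold. ACSM3, for medium chains, went from 7.57 to 5.50, or 4.19-fold, and ACSF2, a mitochondrial member of the family, went from 8.24 to 6.61, or 3.10-fold. Each of the 3 was read by 1 probe set in the table, and the first 2 ended between 5 and 6.

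Other lipid enzymes acted on ceramides, lysophospholipids and oxidized fatty acids. ACER3, an alkaline ceramidase, went from 7.995 to 5.82, or 4.52-fold. LYPLAL1, a lysophospholipase-like hydrolase, had only just passed both thresholds, with a step from 7.13 to 5.53 and 3.03-fold. Its second probe set gave 2.25-fold. EPHX2, the soluble epoxide hydrolase that opens epoxides of fatty acids, went from 9.98 to 8.22 and from 8.79 to 7.14. The decreases of 3.38-fold and 3.15-fold lay close together. PTGR1, which reduces prostaglandin and leukotriene products, went from 10.8 to 8.72, or 4.16-fold. Over the 8 genes of this class the median log2 difference was -1.91.

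Proteins that handle oxidants, sulfur and metals formed a class of 10 genes with a median log2 difference of -1.80. MGST1, a microsomal glutathione transferase that also removes lipid peroxides, was read by 3 probe sets, and those that met the rule went from 12.8 to 10.4 and from 11.7 to 9.10. The decreases were 5.51-fold and 6.21-fold, and the third gave 2.75-fold. AIFM2, which reduces coenzyme Q and so limits lipid peroxidation, went from 11.3 to 9.45 and from 9.38 to 7.50. Its 2 probe sets differed by 0.0042 in log2 difference, the smallest gap of any of these genes, and the decreases were 3.69-fold and 3.68-fold. PRXL2A, a peroxiredoxin-like protein, went from 11.8 to 9.98, or 3.45-fold, and 3.86-fold with its second probe set.

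CDO1, the cysteine dioxygenase that starts the making of taurine, was read by 4 probe sets, and all 4 met the rule. Their lenti-control values lay at 9.96, 10.2, 10.7 and 11.6 and their lenti-miR-206 values at 8.17, 8.50, 8.99 and 9.92, in the same order. The decreases ran from 3.19-fold to 3.44-fold and were thus nearly the same at each brightness. No other of the 48 genes had as many probe sets in the table.

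The enzymes MTARC1 and MOCOS share the molybdenum cofactor. MTARC1, the amidoxime-reducing component of the mitochondrial outer membrane, depends on this cofactor. It was read by 1 probe set and went from 9.01 to 6.497, or 5.72-fold. MOCOS, which adds sulfur to the cofactor for other enzymes, went from 7.52 to 5.91, or 3.05-fold, and 2.22-fold with a second probe set.

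Some genes for heme, iron and other metal proteins, and the mitochondrial NIPSNAP1, were also among the strong decreases. ALAD, an early enzyme of heme synthesis, went from 10.1 to 8.02, or 4.15-fold, and its other probe set missed the threshold narrowly with 2.99-fold. ACO1, the cytosolic aconitase that turns into an iron-sensing RNA-binding protein when iron is scarce, went from 9.75 to 7.97, or 3.43-fold, against 2.20-fold with a dimmer probe set. MT2A, a metallothionein that binds zinc and copper, went from 11.1 to 9.43, or 3.11-fold. Metallothioneins are near-identical in sequence, so its probe set may also read related copies. NIPSNAP1, a mitochondrial protein, went from 9.28 to 7.46, or 3.53-fold.

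The class of matrix, proteoglycan and Wnt proteins held 5 genes. CILP, a matrix protein first known from cartilage, went from 8.22 to 5.89, or 5.05-fold, but only 2.05-fold with its other probe set, so the size depended on the probe set. GPC3 and SDC2 are heparan sulfate proteoglycans of the cell surface that bind growth factors. GPC3 went from 8.28 to 6.30, or 3.94-fold, and SDC2 from 8.59 to 6.86, or 3.33-fold. Their other probe sets gave 2.49-fold and 2.71-fold. S100A4, a calcium-binding protein of motile fibroblasts and leukocytes, went from 9.22 to 7.54, or 3.20-fold, by a single probe set.

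WIF1 is a secreted protein that binds Wnt ligands and blocks their signal. Its member probe sets went from 8.10 to 6.37 and from 7.74 to 5.72, or 3.32-fold and 4.06-fold lower, and another gave 2.82-fold. Other secreted Wnt antagonists of the table did not all move alike. Named after their values were seen, FRZB, SFRP2 and SFRP4 had log2 differences of -1.44, -1.65 and -1.27, and DKK3 one of 1.74. SFRP4 had -2.05 and -2.39 with other probe sets. The probe sets of SFRP2 and SFRP4 all had lenti-control values under the threshold of 7. SFRP2 ended at 4.58 in lenti-miR-206, and the other probe sets of SFRP4 at 4.42 and 3.14. These values lie under 5 and may be background. On the list of growth factors and Wnt, BMP, IGF and FGF signalling, 2 of 39 genes were in the table, SFRP2 and DKK3, and none was a member.

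**Figure D3:**
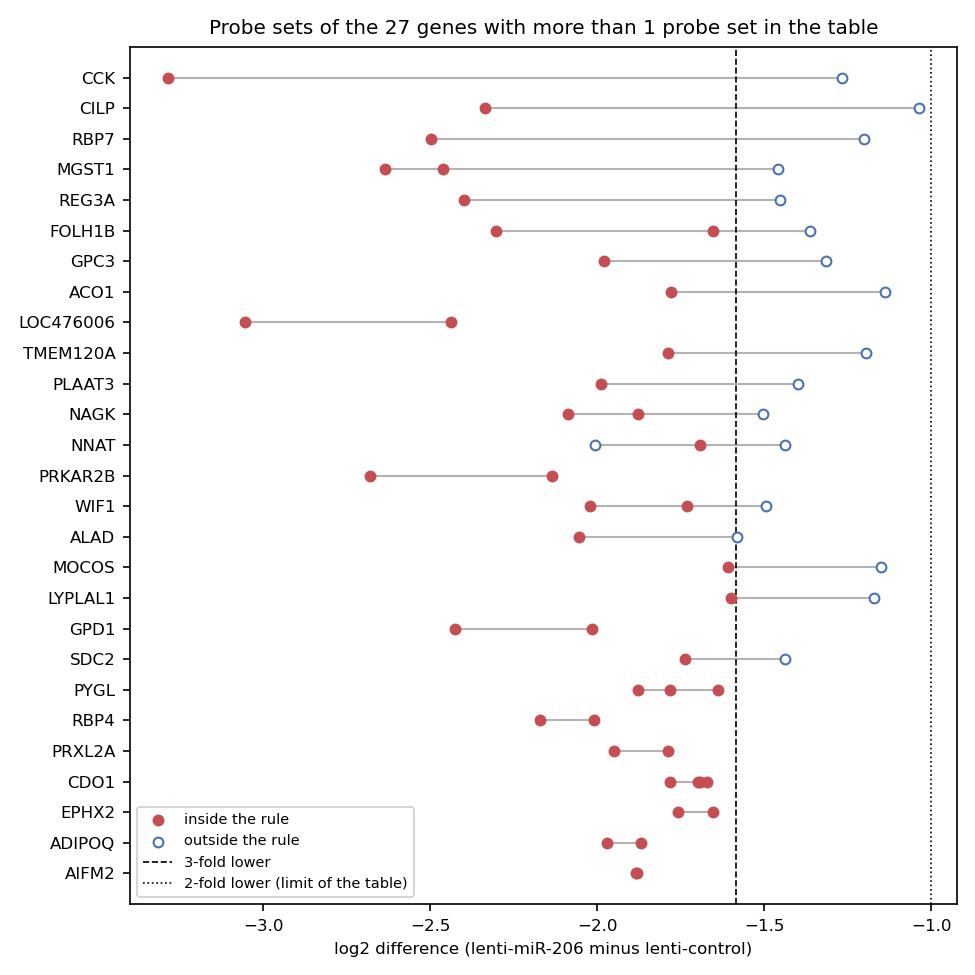
Log2 difference of lenti-miR-206 from lenti-control (x axis) of every probe set in the table for the 27 member genes with more than 1 (y axis, ordered by range), with filled red points for those that met the rule, open points for those that did not, and grey lines from the lowest to the highest. The 4 genes with a range above 1 are CCK, CILP, RBP7 and MGST1, and no probe set lies right of the table's limit of 2-fold.

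The remaining 8 genes share no role. Among the 48, the 3 largest decreases were in this class, while CHGB, put aside by the rule, had a log2 difference of -4.43. CHGB ended at 3.84 in lenti-miR-206, under 5, so the size of its decrease is uncertain too. EIF2S3, the γ subunit of the translation initiation factor eIF2, which brings the initiator tRNA to the ribosome, went from 8.69 to 3.33, or 40.9-fold. A single probe set read it, and its lenti-miR-206 value was close to the lowest value in the table, 2.95, which makes the fold unreliable. No other gene of the 27 listed for translation initiation was in the table, and EIF2S1 and EIF2S2, the partner subunits, are not analysed here. The next in size among the 48 was PTPN2, a tyrosine phosphatase that dampens JAK-STAT and insulin signalling. It went from 7.85 to 3.98, or 14.7-fold, with 1 probe set, and it was the only one of 25 listed phosphatase and JAK-STAT genes in the table.

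CCK, the peptide cholecystokinin of gut cells and neurons, barely reached the lenti-control threshold with 7.001 and had 3.71 in lenti-miR-206, or 9.76-fold. Its other probe set went from 5.26 to 3.997, or 2.41-fold, and the gap of 2.02 between the log2 differences was the widest of these genes. Both lenti-miR-206 values of CCK were under 5. REG3A, a secreted lectin that gut and pancreas make in inflammation, went from 7.80 to 5.40, or 5.27-fold, and from 7.79 to 6.34 with the other probe set, or 2.74-fold. Similar starting values thus gave different ends.

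FOLH1B, for which the dog gene table gives the synonym PSMA, belongs to the folate hydrolase family. Its member probe sets went from 8.43 to 6.77 and from 7.57 to 5.26, or 3.15-fold and 4.94-fold lower, with 2.57-fold by another. RPS12, a protein of the small ribosomal subunit, went from 9.42 to 7.55, or 3.65-fold. Ribosomal protein genes have many processed copies, so this single probe set may not read RPS12 alone. LOC476006 and LOC491346 are protein-coding genes without a name in the dog gene table. LOC476006 went from 11.9 to 9.45 and from 10.1 to 7.07, or 5.42-fold and 8.31-fold lower, and LOC491346 from 11.4 to 9.12, or 4.73-fold.

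Probe sets of the same gene read the same RNA and are no replicates of a condition, but they show how far a difference rests on the choice of probes. The 48 genes had 83 probe sets in the table, and all 83 were lower, which the rule itself fixed for the 65 member probe sets. Of the 83, 18 in 17 genes did not meet the rule. For 17 the decrease was under 3-fold and for 3 the lenti-control value was under 7, counting 2 probe sets under both. Of the 27 genes with more than 1 probe set, 10 had all of them at least 3-fold lower, namely ADIPOQ, AIFM2, CDO1, EPHX2, GPD1, LOC476006, PRKAR2B, PRXL2A, PYGL and RBP4. The median gap between the lowest and the highest log2 difference of a gene was 0.54. Probe sets of these genes that differed by less than 2-fold would not be in the table, so the true gaps can be wider.

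The choice of probe set by the rule also favours large decreases. In 7 genes, LYPLAL1, NAGK, PLAAT3, RBP7, REG3A, SDC2 and TMEM120A, the probe set with the highest mean was not the one that met the rule. With the mean of all listed probe sets of a gene, 44 of the 48 were at least 3-fold lower, and ACO1, LYPLAL1, MOCOS and TMEM120A were not. For most genes this was fixed, since 21 had 1 probe set and 10 had all of them at least 3-fold lower. Only the 17 genes with a probe set outside the rule could fall short, and their means include the probe set that the rule chose. The smallest decrease by that mean was a log2 difference of -1.38.

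At the edges of the rule the genes on both sides had nearly the same values. Just inside the 3-fold threshold lay ACSF2, GNAI1, MOCOS, ME1, LYPLAL1 and SDR16C5, with log2 differences from -1.63 to -1.59. Just outside lay VKORC1L1 with -1.58, BBLN with -1.57 and RHBG with -1.55. At the lenti-control threshold CCK with 7.001 was inside, and NEFL, a neurofilament gene with 6.92, was outside although it was 6.13-fold lower. NEFL ended at 4.31 in lenti-miR-206, which may be background. Below a lenti-control value of 7 there were 17 named probe sets with a 3-fold decrease, genes put aside not counted, and 15 of them had lenti-miR-206 values under 5.

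**Figure D4:**
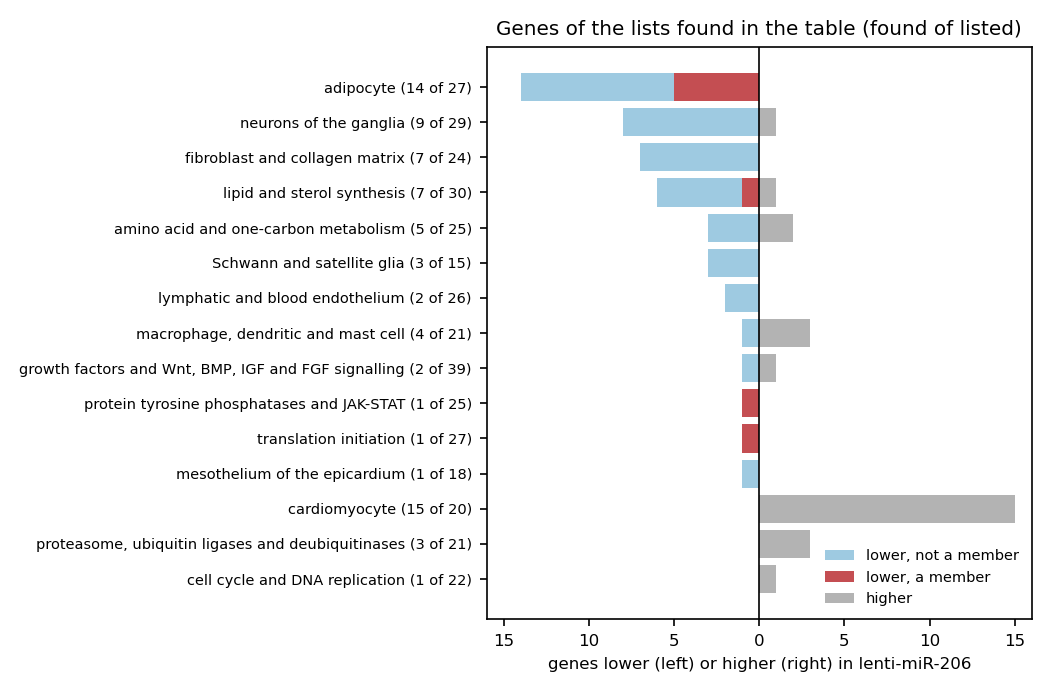
Number of genes (x axis) of each list (y axis, with the number found in the table and the number listed) that were lower, to the left, or higher, to the right, in lenti-miR-206, 1 pooled array per group, with members of the strong decreases in red. All 14 adipocyte genes found were lower, 5 of them as members, and all 15 cardiomyocyte genes found were higher.

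The fat cell list moved with these decreases, and the muscle list moved the other way. The 14 listed fat cell genes in the table had a median log2 difference of -1.76, with differences from -2.87 to -1.02 and median values of 11.2 in lenti-control and 8.60 in lenti-miR-206. Of these 14 genes, 5 are members that were chosen by their decrease. Of 20 listed cardiomyocyte genes, 15 were in the table, with a median log2 difference of 1.70, differences from 1.17 to 2.83 and median values of 11.4 and 12.9. Over all 823 genes of the table the median log2 difference was 1.17, with 212 lower. The list of fibroblast and collagen genes had 7 of 24 in the table, all lower, with a median of -1.31. Ganglion neurons, with 8 of 9 lower, and glia, with 3 of 3 lower, gave medians of -2.08 and -1.45. The neuron list had median values of 6.97 in lenti-control and 4.31 in lenti-miR-206. The latter lies under 5, where values may be background, so the size of the neuron decrease is uncertain. The endothelial list had 2 of 26 genes in the table, both lower. They were FABP4, which is also on the fat cell list, and MMRN1, which ended at 4.57 in lenti-miR-206. The mesothelial list had 1 of 18, C3, which was lower, and the macrophage list had 4 of 21, with 3 higher. Of 25 genes of amino acid metabolism 5 were in the table, 3 of them lower, and the 3 genes of the proteasome and ubiquitin list and the 1 of the cell cycle list were higher. No gene of the lymphocyte, neutrophil, red cell, interferon or Y-linked and X-inactivation lists was in the table. Fewer fat cells and less of each RNA per fat cell cannot be told apart in pooled tissue, and the part of the tissue make-up in these decreases was not tested.

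The size of the set depended on the reference level. Relative to the median of the spike-in controls, a log2 difference of -1.08, all 48 genes stayed lower but the smallest decrease shrank to -0.52, and 16 genes stayed at least 2-fold lower. Relative to the GAPDH controls, whose median was 1.31, the smallest decrease became -2.90. Both medians come only from controls in the table, which all differed between the arrays by at least 2-fold. Controls with smaller differences are not included, so neither median could lie near no change. Neither control is shown to be unchanged between the pools.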

How the data were processed

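Total RNA of the left superior fat pads was extracted with TRIzol, pooled from 3 dogs per group, labelled with biotin and hybridized to 1 Affymetrix canine array per group. For its small RNA libraries of control and paced dogs, the paper states that fat was left out as far as possible. It does not say whether this was done for these arrays, so the amount of fat in each pool is unknown. The deposited values are log2 intensities that the authors made with RMA, which corrects background, normalizes arrays and summarizes each probe set, and which compresses differences of dim probe sets. The software version and genome build, and which arrays were normalized as 1 batch, were not given in the sources used here. No detection calls were used. Probe sets that differed by less than 2-fold are not analysed here.

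The log2 difference of lenti-miR-206 from lenti-control and its fold were computed in pandas 2.3.3 and numpy 2.4.6 under Python 3.11.15. Plots were made in matplotlib 3.10.9. The code of the rule was run on simulated data with planted decreases, which checks the code and not the rule. Symbols are those of the platform annotation. The NCBI table of the dog assembly UU_Cfam_GSD_1.0 held 45 of the 48 genes by Entrez identifier and the other 3 by symbol. No coordinates or sequences are printed, because no genome was used. Of the 65 member probe sets, the 25 whose names end in s_at or x_at may read several transcripts. All 48 genes are named, each represented by its member probe set with the highest mean. The members, the 20 gene lists and the alternatives were chosen with earlier results of these data known, and the roles were assigned after the members were known. No test was made, since each group has 1 array.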

Additional observations from a re-analysis of the deposited data

How the results depend on the processing

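Main settings gave 65 probe sets, 48 genes and a median log2 difference of -1.98. A threshold of 4-fold gave 30 probe sets and 25 genes, and leaving out s_at and x_at probe sets gave 40 probe sets. Applied to differences taken from the spike-in median, the rule gave 5 probe sets in 5 genes, EIF2S3, PTPN2, CCK, LOC476006 and PRKAR2B. Taken from the GAPDH median it gave 197 probe sets in 138 genes, a count limited by the 2-fold selection of the table. Both references come from controls that had themselves passed this selection. The other counts stayed within 1.5 times, and no alternative turned the median or the difference of any of the 48 genes higher. Where the rule was applied again, the median could not turn higher, because the rule keeps only decreases. Nor could any of the 48 genes turn higher with either reference or by its lowest probe set. Each had a larger decrease than the spike-in median, and the GAPDH reference only lowers the differences. The medians lay between -2.62 with the GAPDH reference and -1.84 with the mean of all probe sets. With either reference the log2 difference of 45 of the 48 genes moved by over 1.5 times. The range over all probe sets of a gene was added after the data were seen, and its smallest decrease moved by over 1.5 times in 7 genes. No paired analysis was possible because each group has 1 array. Dim values limit the sizes for EIF2S3, PTPN2 and CCK.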

Other observations

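The 26 probe sets without a gene symbol that passed both thresholds had log2 differences from -4.17 to -1.59 with a median of -2.02, and 3 of them had lenti-miR-206 values under 5. In the order of protein-coding genes of the dog assembly UU_Cfam_GSD_1.0, 7 genes lie between PTPN2 and CIDEA, a fat cell gene put aside by the rule, and 9 lie between LYPLAL1 and MTARC1. No other neighbours among the 61 genes were within 10 genes of each other. The same thresholds were turned to increases, with a lenti-miR-206 value of 7 or more and at least 3-fold higher. With no gene put aside, they gave 220 probe sets with 1 symbol in 167 genes, and the largest log2 difference was 3.43. The matching decreases, also with no gene put aside, were 84 probe sets in 61 genes. Of the 1628 probe sets in the table, 1223 were higher.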
